A study of Mus musculus with 22 samples.

Results

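Sorted brain endothelium can carry RNA from the cells that lie against the vessel wall, and 36 marker genes of such cells were followed in every library of the series. The genes were picked by symbol and fall into 5 classes, with 7 genes of pericytes, 8 of vascular smooth muscle, 12 of microglia, 4 of perivascular macrophages and 5 of fibroblasts. All 36 were found, with 1 entry each, among the 37991 genes of the deposited table. Levels are in CPM, a gene's read count corrected for the depth of its library, and each library is given singly.

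The 22 libraries came from CD31+ cells of dissociated mouse brain, enriched by fluorescence-activated sorting after a live stain for CD31 and for non-endothelial markers whose names the labels leave out. The activation group (4 libraries) was labelled C57BL/6 CamKIIa-tTA; TRE-hM3Dq, and the silencing group (4 libraries) C57BL/6 CamKIIa-tTA; TRE-hM4Di. In both lines a transactivator driven by the CamKIIa promoter, which is active in glutamatergic forebrain neurons, switches on a designer receptor, which excites (hM3Dq) or inhibits (hM4Di) the neuron when its ligand CNO is given. Each line had its own control group of 4 libraries, made from littermates that per the series text did not express the receptor, although their genotype label is that of the treated mice. Treated and control mice of both lines received CNO, and cortex and hippocampus were collected 3 hours later. The whisker experiment used wild-type C57BL/6 mice without transgene or CNO. Whisker-plus mice (3 libraries) explored an enriched cage with their whiskers in the dark, whisker-minus mice (3 libraries) had no whiskers and were kept in an empty cage, and each library pooled 5 pairs of barrel cortices. No age of the mice is stated in the labels or the series text.

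Pericytes are mural cells that share the basement membrane of capillaries with the endothelium and are held there by platelet-derived growth factor signalling. Smooth muscle cells ring arterioles and arteries and set their diameter with an actin and myosin machinery. Microglia are the resident macrophages of the brain tissue, perivascular macrophages sit in the space around larger vessels, and fibroblasts lay down collagen around those vessels and in the meninges. None of these cells is endothelial, so their markers serve here as a rough measure of what else entered each library. Reads of a marker that the endothelial cells made themselves cannot be told apart from it.

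Total depth was 18387666 to 57673270 reads per library, lowest in the activation experiment and highest in the whisker experiment, with each treated group close to its own control. The endothelial label was borne out by its defining genes in all 22 libraries. Pecam1, which encodes CD31, spanned 1771 to 2195 CPM, the tight junction gene Cldn5 1909 to 5172 CPM and the adhesion gene Cdh5 958 to 1449 CPM. The summed level of 14 endothelial genes stayed between 28837 and 35371 CPM, and that of the 36 markers between 1007 and 3194 CPM.

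Divided by exon length, the medians of the classes fell into an order, while single genes of different classes overlapped. Rgs5 averaged 193 CPM per kb of exon, Vtn 82.4, Myl9 66.0 and Acta2 48.2, against 314 for Pecam1 and 287 for Cdh5. Pericyte members had a median of 12.3 CPM per kb and smooth muscle members 11.6. Microglia members had a median of 1.59, fibroblast members 0.206 and perivascular macrophage members 0.116 CPM per kb, with Ctss at 6.05 the highest of these 3 classes. The 4 macrophage genes, at 0.0970 to 0.123 CPM per kb, could not be ordered among themselves, since the ranges of their 6 group means overlapped. No cell type was separated from these bulk values, so fewer cells of a type and less RNA per cell cannot be told apart anywhere below.

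**Figure D1:**
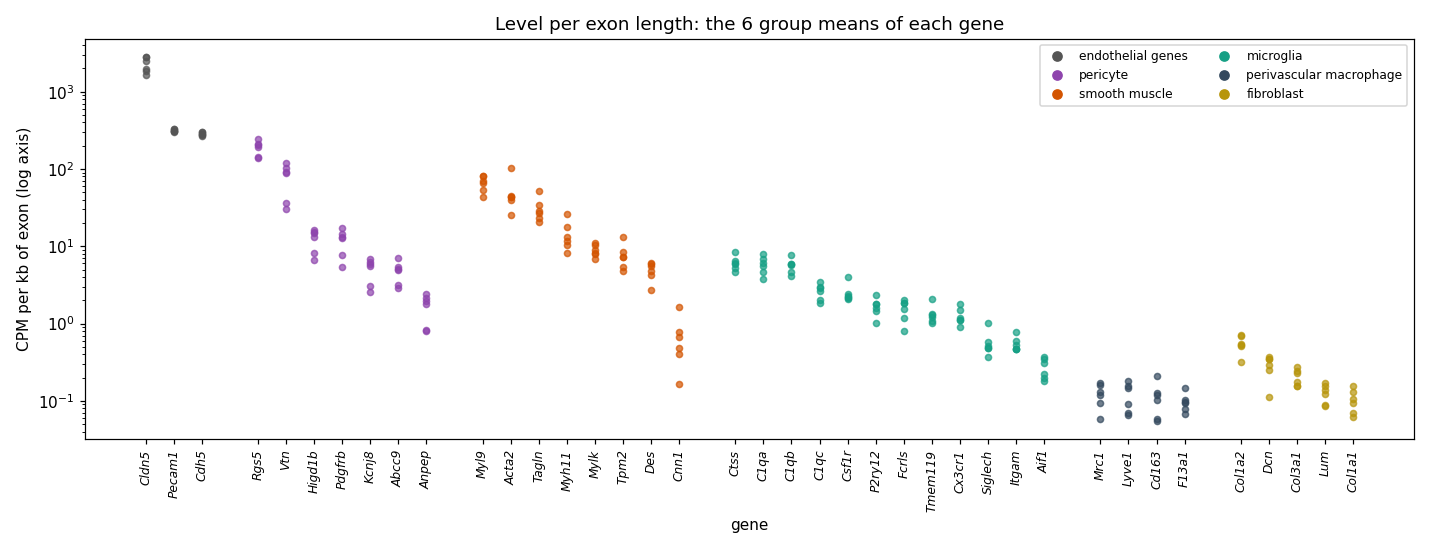
Level of the 36 markers and of 3 endothelial genes in CPM per kb of exon, on a log axis, with 1 point for each of the 6 group means. Rgs5 lies just under Pecam1 and Cdh5, while the macrophage and fibroblast genes lie below 1 CPM per kb.

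No marker passed in any comparison with limma on log2(CPM + 1), at a Benjamini-Hochberg adjusted p under 0.05 over all genes tested. That held for 28 tested members in activation against activation control, where 0.14% of 12872 genes passed, for 30 in silencing against silencing control (0.177% of 13017) and for 29 in whisker-plus against whisker-minus (0% of 12776). No member had an unadjusted p under 0.05 in the activation and silencing comparisons, where 11.4% and 16.1% of all genes did, and 1 member, C1qb, had one in the whisker comparison, where 13% of all genes did. With the replicate number as a block, 1.82%, 1.04% and 8.59% of genes passed and again no member did. edgeR on the reads called no member, and DESeq2, which called 2.91% of all genes for activation, 3.54% for silencing and 3.18% for whisker, called C1qb alone, in the whisker comparison. What the members showed instead was large variation between single libraries, shared by many genes of a class.

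**Figure D2:**
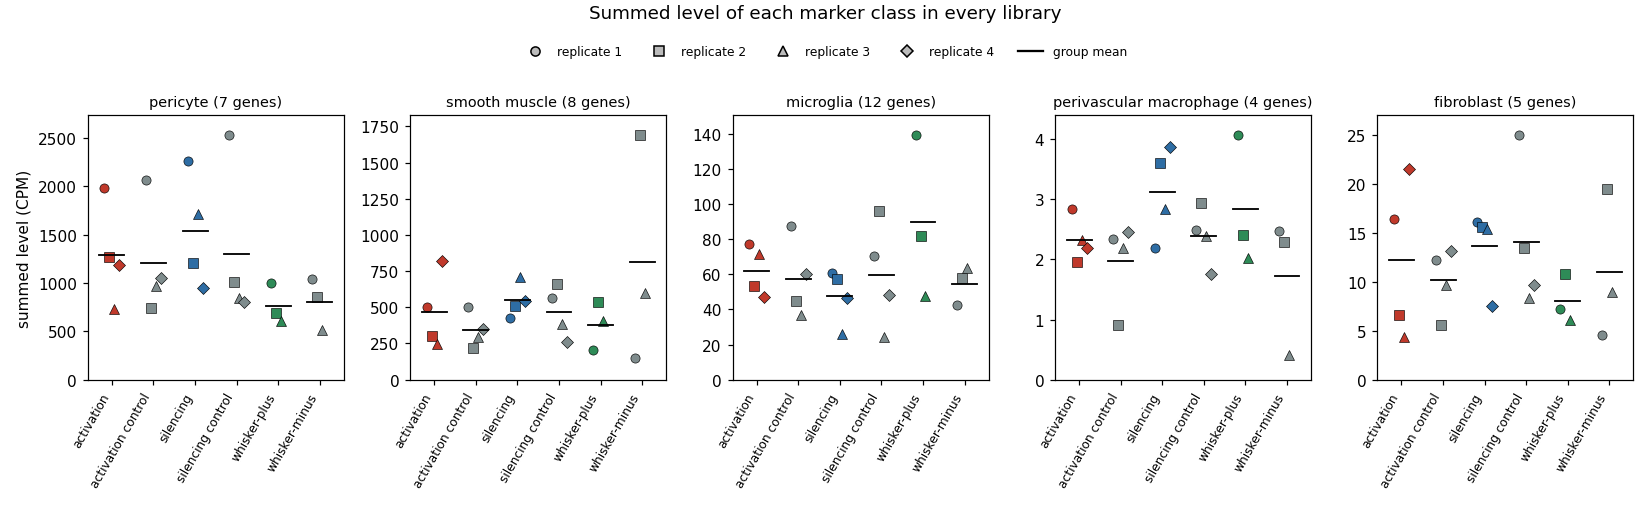
Summed CPM of each marker class in every library, with 1 symbol per replicate number and a line at each group mean. The replicate 1 libraries top the pericyte panel in both DREADD experiments, whisker-minus 2 stands above all others for smooth muscle, and whisker-plus 1 for microglia.

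The pericyte genes set the replicate 1 libraries of both DREADD experiments apart. Summed over the 7 genes, activation 1 had 1984 CPM and activation control 1 had 2070 CPM, against 734 to 1266 CPM in the 6 other libraries of that experiment. Silencing 1 had 2267 CPM and silencing control 1 had 2533 CPM, against 800 to 1715 CPM in the rest, where silencing 3 was the highest. The whisker libraries lay closer together, but replicate 1 was again the highest of each group. Whisker-plus 1 had 1000 CPM and whisker-minus 1 had 1038 CPM, against 512 to 853 CPM in the rest. Other lists were high in the same 2 activation libraries. The 8 genes of other blood cells summed to 34.2 CPM in activation 1 and 38.3 CPM in activation control 1, against 10.8 to 21.7 CPM in the rest, and the microglia members to 77.1 and 87.8 CPM, against 36.8 to 71.4 CPM. The smooth muscle members summed to 505 CPM in both, below activation 4 at 821 CPM and above the others at 217 to 349 CPM. Their part in the pericyte values was not tested. In the activation experiment 6 of 7 pericyte members peaked in activation control 1 and the other, Kcnj8, in activation 1. In the silencing experiment 6 of 7 peaked in silencing control 1 and the other, Abcc9, in silencing 1. Both groups of an experiment held 1 high library, so the treated and control groups overlapped for every member. No tested member of any class had all treated libraries above or all below the controls for activation, where 3.65% and 3.5% of tested genes did, or for silencing, where 2.25% and 7.3% did.

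Rgs5, a regulator of G protein signalling that is abundant in brain pericytes, made up at least 65.2% of the pericyte sum in every library. It had 1327, 1014, 600.4 and 895 CPM in activation libraries 1 to 4, against 1349, 599, 772 and 796 CPM in activation control libraries 1 to 4. Rgs5 was at 1567, 902, 1203 and 729.5 CPM in silencing libraries 1 to 4, against 1714, 763, 649.7 and 585 CPM in silencing control libraries 1 to 4. Both replicate 1 libraries were the highest of their groups, and silencing 3 came next. The whisker libraries were closer together, with 827, 572 and 497 CPM in whisker-plus libraries 1 to 3, against 849.9, 675 and 397 CPM in whisker-minus libraries 1 to 3. The log2 fold change was 0.14 ± 0.27 for activation (SE, n = 4 each, limma adjusted p = 0.899), 0.33 ± 0.35 for silencing (adjusted p = 0.670) and 0.01 ± 0.29 for whisker (n = 3 each, adjusted p = 0.990).

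Vtn, which encodes the adhesive matrix protein vitronectin, showed the same libraries with a wider spread. It had 371, 144, 69.99 and 154 CPM in activation libraries 1 to 4, against 411, 74.3, 106 and 133 CPM in activation control libraries 1 to 4. Vtn was at 393, 173, 286 and 111 CPM in silencing libraries 1 to 4, against 466, 134, 110.1 and 132 CPM in silencing control libraries 1 to 4. Silencing control 1 exceeded the next library of its group by a factor of 3.48. Vtn reached 84.4, 56.6 and 45.1 CPM in whisker-plus libraries 1 to 3, against 94.3, 80.8 and 48.3 CPM in whisker-minus libraries 1 to 3. Vtn lay lower in whisker-plus than in the same-numbered whisker-minus library in all 3 pairs, as 30.9% of tested genes did, with a log2 fold change of -0.25 ± 0.29 (adjusted p = 0.773, and 0.0943 with the replicate block). The ratio of Vtn to Rgs5 was 0.0907 to 0.305 over the 22 libraries, so the pericyte genes did not scale by 1 common factor.

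Pdgfrb, the receptor through which endothelial platelet-derived growth factor recruits pericytes, was also highest in the replicate 1 libraries of the DREADD experiments. It had 133, 43.9, 30.1 and 69.9 CPM in activation libraries 1 to 4, against 153, 29.1, 46.9 and 57.9 CPM in activation control libraries 1 to 4. Pdgfrb was at 144, 72.2, 108 and 54.7 CPM in silencing libraries 1 to 4, against 179.6, 53.9, 44.2 and 39.3 CPM in silencing control libraries 1 to 4. Silencing control 1 stood apart from the other controls. Pdgfrb reached 33.5, 31.8 and 23.8 CPM in whisker-plus libraries 1 to 3, against 34.2, 63.1 and 29.7 CPM in whisker-minus libraries 1 to 3. Here the top library was whisker-minus 2, not a replicate 1 library, and the log2 fold change was -0.43 ± 0.27 (adjusted p = 0.555, and 0.0976 with the block). Pdgfrb is also made by smooth muscle cells and fibroblasts. All 8 smooth muscle members, 2 of 5 fibroblast members (Col1a2 and Col3a1) and the pericyte member Higd1b were highest in that same whisker library. The part of smooth muscle cells and fibroblasts in the Pdgfrb values was not tested.

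Higd1b, a member of the hypoxia-inducible domain family, was less abundant. It had 23.3, 11.5, 6.01 and 10.9 CPM in activation libraries 1 to 4, against 24.3, 7.56, 8.78 and 9.42 CPM in activation control libraries 1 to 4. Higd1b was at 19.4, 11.1, 16.6 and 8.38 CPM in silencing libraries 1 to 4, against 20.8, 8.33, 6.76 and 8.76 CPM in silencing control libraries 1 to 4. Higd1b reached 6.82, 4.77 and 5.22 CPM in whisker-plus libraries 1 to 3, against 6.47, 9.93 and 4.14 CPM in whisker-minus libraries 1 to 3. As for Pdgfrb, replicate 1 was highest in each DREADD group and whisker-minus 2 highest in the whisker experiment. Kcnj8 and Abcc9, the pore and the regulatory subunit of an ATP-sensitive potassium channel, spanned 4.01 to 37.2 and 15.5 to 101 CPM over the 22 libraries, and Anpep, which encodes aminopeptidase N, 2.22 to 20.2 CPM. In contrast to Pdgfrb and Higd1b, these 3 genes did not peak in whisker-minus 2.

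In some pairs of same-numbered libraries the class moved together, and in others it was split. All 7 pericyte genes were higher in activation 2 than in activation control 2, and all 7 were lower in activation 3 than in activation control 3. In activation pair 1, 6 of 7 were lower in the treated library, and in activation pair 4, 6 of 7 were higher. All 7 were higher in silencing 3 than in silencing control 3, while 6 of 7 were lower in silencing 1 than in silencing control 1. Silencing pairs 2 and 4 had 5 and 4 of 7 higher in the treated library. Whisker pairs 1, 2 and 3 had 3, 2 and 5 of 7 higher in whisker-plus. Over all pairs the median log2 fold change of the 7 genes was 0.05 for activation, 0.34 for silencing and -0.08 for whisker, beside -0.01, -0.07 and -0.07 over all genes tested. All 7 silencing values lay above 0, from 0.02 for Kcnj8 to 0.46 for Pdgfrb, and none passed (lowest adjusted p = 0.638). The widest 95% interval among them, for Abcc9, was -0.67 to 1.56 on the log2 scale.

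Another 12 genes of pericytes and mural cells that are no members gave the same libraries. In the activation experiment 7 of 12 were highest in activation control 1 and the other 5 in activation 1. In the silencing experiment 10 of 12 were highest in silencing control 1 and the other 2 in silencing 1. Notch3, a receptor that maintains mural cells, had 138 CPM in silencing 1 and 178 CPM in silencing control 1, and its highest whisker value, 115 CPM, in whisker-minus 2. None of the 12 passed in any treatment comparison, with limma (with or without the block) or DESeq2.

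The summed smooth muscle genes peaked in other libraries than the pericyte genes, although activation 1 and activation control 1 came next after activation 4. Summed over the 8 members, the level was 505, 302, 249 and 821 CPM in activation libraries 1 to 4, against 505, 217, 297 and 349 CPM in activation control libraries 1 to 4. Silencing gave 427, 511, 709 and 544 CPM in silencing libraries 1 to 4, against 563, 658, 385 and 259.8 CPM in silencing control libraries 1 to 4. The whisker libraries summed to 203, 534 and 403 CPM in whisker-plus libraries 1 to 3, against 146, 1692 and 598 CPM in whisker-minus libraries 1 to 3. Whisker-minus 1 was the lowest and whisker-minus 2 the highest of all 22 libraries, so a single control group held both ends. All 8 members peaked in activation 4 within the activation experiment, all 8 peaked in whisker-minus 2 within the whisker experiment, and all 8 were at their lowest there in whisker-minus 1.

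Acta2, the alpha actin of smooth muscle, had the widest range of the abundant members. It had 92.98, 54.9, 44.2 and 194 CPM in activation libraries 1 to 4, against 97.1, 27.0, 41.2 and 60.1 CPM in activation control libraries 1 to 4. Acta2 was at 60.4, 96.8, 129.9 and 103 CPM in silencing libraries 1 to 4, against 100.4, 142, 88.7 and 49.4 CPM in silencing control libraries 1 to 4. Acta2 reached 32.1, 136 and 97.0 CPM in whisker-plus libraries 1 to 3, against 12.9, 508 and 163 CPM in whisker-minus libraries 1 to 3. Its level in whisker-minus 2 was 39.3 times that in whisker-minus 1. The log2 fold change was 0.68 ± 0.46 for activation (SE, n = 4 each, limma adjusted p = 0.622), 0.08 ± 0.31 for silencing (adjusted p = 0.924) and -0.46 ± 1.18 for whisker (n = 3 each, adjusted p = 0.920), and the last had a 95% interval of -3.18 to 2.26.

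Myh11, the smooth muscle myosin heavy chain, gave nearly the same picture. It had 75.9, 38.1, 34.9 and 171 CPM in activation libraries 1 to 4, against 85.8, 35.3, 62.3 and 65.0 CPM in activation control libraries 1 to 4. Myh11 was at 81.4, 121, 187 and 157 CPM in silencing libraries 1 to 4, against 99.8, 174, 82.7 and 44.8 CPM in silencing control libraries 1 to 4. Myh11 reached 39.5, 127 and 104 CPM in whisker-plus libraries 1 to 3, against 22.6, 416 and 162 CPM in whisker-minus libraries 1 to 3. Activation 4 and whisker-minus 2 were again the top libraries of their experiments. The log2 fold changes of 0.13 ± 0.44, 0.54 ± 0.38 and -0.52 ± 0.94 for activation, silencing and whisker did not pass (adjusted p = 0.944, 0.511 and 0.881). Without whisker-minus 2 the whisker value was 0.40 for Myh11 and 0.68 for Acta2, and without whisker-minus 1 it was -1.67 and -1.92.

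Cnn1, which encodes calponin, an actin-binding protein of differentiated smooth muscle, was near the floor in many libraries and several CPM in a few. It had 1.11, 0.465, 0.757 and 6.12 CPM in activation libraries 1 to 4, against 0.707, 0.0481, 0.403 and 0.636 CPM in activation control libraries 1 to 4. Activation 4 stood apart from the rest of its group. Cnn1 was at 0.394, 1.21, 1.61 and 1.24 CPM in silencing libraries 1 to 4, against 0.862, 2.998, 0.849 and 0.651 CPM in silencing control libraries 1 to 4. Cnn1 reached 0.241, 1.63 and 3.62 CPM in whisker-plus libraries 1 to 3, against 0.0694, 8.89 and 4.34 CPM in whisker-minus libraries 1 to 3. The lowest value was 1 read, so ratios to it carry little weight. Under the filter on low values Cnn1 was not tested for activation, where too few libraries reached 1 CPM.

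The other 5 contractile genes also peaked in activation 4 and whisker-minus 2 within their experiments. Tagln, an actin-binding protein, spanned 12.8 to 230.0 CPM, the beta-tropomyosin gene Tpm2 3.81 to 85.2 CPM and the myosin regulatory light chain gene Myl9 30.8 to 197 CPM. Des, which encodes the intermediate filament protein desmin, spanned 7.21 to 38.5 CPM and the myosin light chain kinase gene Mylk 56.3 to 215 CPM. Tagln and Cnn1 were the 2 smooth muscle members higher in activation than in the same-numbered control in all 4 pairs, which 13.1% of tested genes were. With the block Tagln had an adjusted p of 0.153 for activation (log2 fold change 0.61 ± 0.20) and Acta2 of 0.187, the lowest of any member there.

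**Figure D3:**
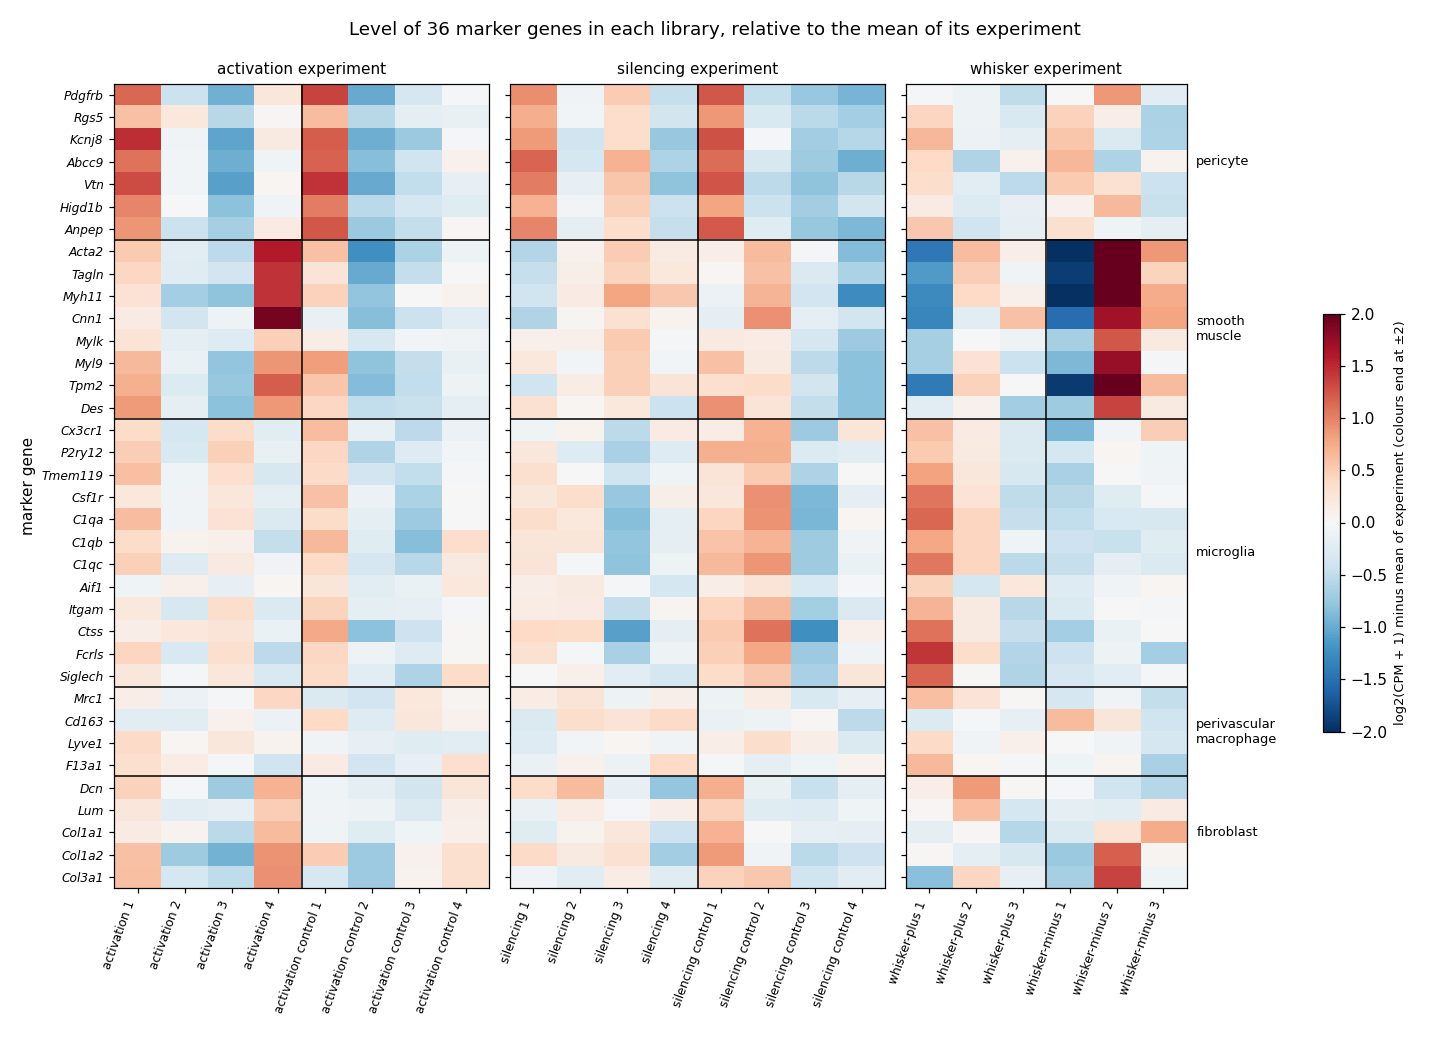
Level of each of the 36 markers in each library, as log2(CPM + 1) minus the mean of its experiment, with treated libraries left of their controls and colours ending at ±2. Whole classes change colour together within single libraries, such as the pericyte genes in replicate 1 of both DREADD experiments and the smooth muscle genes in activation 4, whisker-minus 1 and whisker-minus 2.

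The direction of the smooth muscle class changed from pair to pair. All 8 members were higher in activation 2 and activation 4 than in their same-numbered controls. All 8 were lower in silencing 1 and silencing 2 than in silencing control 1 and 2, and all 8 were higher in silencing 3 and silencing 4 than in silencing control 3 and 4. In the whisker experiment all 8 were higher in whisker-plus 1 than in whisker-minus 1, and all 8 were lower in whisker-plus 2 and 3 than in whisker-minus 2 and 3. The pairs cancelled in part, giving median log2 fold changes of 0.36 over 7 tested members for activation, 0.20 over 8 for silencing and -0.53 over 8 for whisker, with lowest adjusted p of 0.588, 0.409 and 0.681.

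Markers of other brain cells moved with 2 of these libraries. The summed level of 8 astrocyte genes was 293, 317 and 320.1 CPM in whisker-plus 1 to 3, against 292, 1137 and 1007 CPM in whisker-minus 1 to 3. In the activation experiment it was highest, at 482 CPM, in activation 4. With the block 6 of 8 astrocyte genes passed as lower in whisker-plus (Gja1, the connexin 43 gene, had the lowest adjusted p, 0.0258, with a log2 fold change of -0.55 ± 0.12), where 5.6% of all genes passed as lower. Whisker-minus 3 had 88.5% of the astrocyte sum of whisker-minus 2 and 35.3% of its smooth muscle sum. The part of astrocytes in the smooth muscle values was not tested.

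Of 11 further smooth muscle genes, 7 were highest in activation 4 within the activation experiment and 9 in whisker-minus 2 within the whisker experiment. Tpm1, a tropomyosin gene that endothelial cells also express, spanned 219.6 to 419 CPM. Synpo2, which encodes an actin-binding protein, was lower in all 3 whisker-plus libraries than in all 3 whisker-minus libraries, as 13.4% of tested genes were. It had 25.2, 36.01 and 35.1 CPM in whisker-plus libraries 1 to 3, against 47.4, 54.7 and 65.8 CPM in whisker-minus libraries 1 to 3. It fell by 0.79 ± 0.09 on the log2 scale with the block (limma adjusted p = 0.00273) and did not pass in limma without it (adjusted p = 0.201). DESeq2 called it without a block for whisker (log2 fold change -0.72, adjusted p = 0.00565) and for silencing (-1.12, adjusted p = 0.0238).

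Promoters of the contractile genes are known to carry the CArG box, the sequence bound by serum response factor, which drives contractile genes in smooth muscle together with myocardin. The 250 bases before the start of transcription were searched for the 10 bases of this box on RefSeq sequence of build GRCm38.p6. Boxes were exact or had 1 of the 6 inner bases other than A or T, a pattern that reads alike on both strands. Of the 6 smooth muscle members with an entry, Myl9 held an exact box and Myl9 and Acta2 held boxes with 1 other base. None was found in Cnn1, Mylk, Tpm2 or Des, nor in the 5 pericyte, 9 microglia and 3 macrophage members searched, while 1 of 2 fibroblast members, Col1a2, held a box with 1 other base. Over all 32851 promoter windows 1.47% held an exact box and 8.59% held one with at most 1 other base. Member promoters on 1 chromosome were left out of the search, while the count over all windows kept that chromosome. A match describes these letters and does not show binding. Any part of these boxes in the shared peaks of the smooth muscle genes was not tested. The windows of both genes are printed 5′ to 3′ along the gene with the boxes in capitals, for Acta2 at chr19:34255374-34255623 on the minus strand and for Myl9 at chr2:156775214-156775463 on the plus strand.
Acta2: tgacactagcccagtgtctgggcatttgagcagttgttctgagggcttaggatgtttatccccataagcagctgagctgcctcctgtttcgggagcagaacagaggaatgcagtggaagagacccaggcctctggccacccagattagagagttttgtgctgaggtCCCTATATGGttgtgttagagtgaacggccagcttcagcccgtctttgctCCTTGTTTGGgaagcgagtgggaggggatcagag
Myl9: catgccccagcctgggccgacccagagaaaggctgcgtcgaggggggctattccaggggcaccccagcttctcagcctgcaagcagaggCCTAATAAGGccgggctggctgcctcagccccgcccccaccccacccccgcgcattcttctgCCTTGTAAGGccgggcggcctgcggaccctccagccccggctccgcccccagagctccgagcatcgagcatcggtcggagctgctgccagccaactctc

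In Acta2, the gene whose whisker-minus libraries differed most among the abundant members, the boxes CCCTATATGG and CCTTGTTTGG begin 84 and 34 bases before the start of transcription. In Myl9 the exact box CCTAATAAGG begins 161 bases and CCTTGTAAGG 99 bases before it. The ratio of Myh11 to Acta2 was 0.694 to 1.75 over the 22 libraries and that of Tagln to Acta2 0.42 to 0.989, a far narrower range than that of any of these genes alone.

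The microglia genes were highest in the replicate 1 libraries of the activation experiment, as the pericyte genes were, but in other libraries of the silencing and whisker experiments. Summed over the 12 members, the level was 77.1, 53.2, 71.4 and 47.1 CPM in activation libraries 1 to 4, against 87.8, 44.9, 36.8 and 60.5 CPM in activation control libraries 1 to 4. Silencing gave 60.6, 57.4, 26.3 and 46.7 CPM in silencing libraries 1 to 4, against 70.6, 96.0, 24.2 and 48.1 CPM in silencing control libraries 1 to 4. The whisker libraries summed to 139.5, 81.9 and 47.5 CPM in whisker-plus libraries 1 to 3, against 42.3, 57.9 and 63.5 CPM in whisker-minus libraries 1 to 3. Whisker-plus 1 was the highest of all 22 libraries and the top one of its experiment for all 12 members. Silencing control 2 was the top library for 11 of 12 in the silencing experiment, and silencing control 3 the lowest for 8 of 12. The 8 astrocyte genes were also highest in silencing control 2, at 585 CPM, and 6 of 8 peaked there within the silencing experiment. The 8 oligodendrocyte genes summed to 1915 CPM there, against 742 to 1424 CPM in the other silencing and silencing control libraries, and the 8 genes of other blood cells to 47.3 CPM, against 25.1 to 34.1 CPM. The part of these cells in the microglia values was not tested. As for the other classes, high and low libraries occurred within 1 group.

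Csf1r, the receptor for the growth factor on which microglia depend, differed 6.498-fold between its lowest and highest library. It had 14.2, 11.4, 14.3 and 10.6 CPM in activation libraries 1 to 4, against 18.6, 11.02, 7.48 and 12.001 CPM in activation control libraries 1 to 4. Csf1r was at 13.7, 14.98, 6.42 and 12.51 CPM in silencing libraries 1 to 4, against 13.6, 22.5, 5.69 and 10.1 CPM in silencing control libraries 1 to 4. Csf1r reached 37.0, 21.005 and 11.8 CPM in whisker-plus libraries 1 to 3, against 11.3, 14.3 and 16.7 CPM in whisker-minus libraries 1 to 3. Whisker-plus 3 lay within the whisker-minus range, so the whisker groups overlapped. The log2 fold change was 0.56 ± 0.36 for whisker (n = 3 each, limma adjusted p = 0.568), 0.09 ± 0.23 for activation (adjusted p = 0.919) and -0.03 ± 0.37 for silencing (adjusted p = 0.977), the last of which lay above 0 with RLE or TMM scaling.

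Ctss, which encodes the lysosomal protease cathepsin S, varied with Csf1r. It had 8.78, 9.30, 9.70 and 7.19 CPM in activation libraries 1 to 4, against 14.1, 4.04, 5.69 and 8.07 CPM in activation control libraries 1 to 4. Ctss was at 8.68, 8.43, 2.47 and 5.48 CPM in silencing libraries 1 to 4, against 9.59, 14.6, 2.14 and 6.84 CPM in silencing control libraries 1 to 4. Ctss reached 19.1, 9.72 and 5.86 CPM in whisker-plus libraries 1 to 3, against 4.89, 7.65 and 8.498 CPM in whisker-minus libraries 1 to 3. Replicate 3 was the lowest library in silencing and in its control. The log2 fold changes were 0.23 ± 0.29, -0.25 ± 0.48 and 0.54 ± 0.38 for activation, silencing and whisker (adjusted p = 0.805, 0.833 and 0.612). In the authors' deposited table Csf1r and Ctss are the 2 members of 29 marked as higher in whisker-plus, where 9.35% of its genes with an FDR are marked in either direction. By its header the mark asks for p under 0.05 and more than 10 CPM, and it does not name the FDR. The log2 fold changes listed there are 0.48 and 0.43, with unadjusted p of 0.0116 and 0.0278 and FDR values of 0.177 and 0.277.

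C1qb, a chain of the complement protein C1q and chosen here after its values were seen, came closest to a call. It had 11.1, 8.56 and 5.71 CPM in whisker-plus libraries 1 to 3, against 4.33, 4.21 and 5.02 CPM in whisker-minus libraries 1 to 3. All whisker-plus libraries lay above all whisker-minus libraries, which held in that direction for 5.65% of tested genes, and for C1qb and Dcn among the 29 tested members. The log2 fold change was 0.74 ± 0.23 (95% interval 0.20 to 1.28, limma adjusted p = 0.281, and 0.0591 with the block). DESeq2 gave an adjusted p of 0.0352, against 0.0352 to 0.622 over all alternatives. The authors' deposited table lists an FDR of 0.0280, where 2.57% of its genes have an FDR under 0.05. C1qb has no mark there, and the mark also asks for more than 10 CPM. C1qa and C1qc, the other chains, lay at 0.75 ± 0.37 and 0.63 ± 0.37 (adjusted p = 0.449 and 0.526), with whisker-plus 3 inside the whisker-minus range for C1qa and below it for C1qc.

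The remaining microglia members were low. Cx3cr1, the fractalkine receptor, spanned 2.23 to 10.97 CPM over the 22 libraries, the ADP receptor gene P2ry12 1.61 to 7.78 CPM, and the microglial surface gene Tmem119 1.32 to 7.16 CPM. Itgam, which encodes the integrin CD11b, spanned 1.10 to 5.86 CPM, Fcrls, an Fc receptor-like gene, 1.31 to 9.02 CPM and the lectin gene Siglech 0.535 to 6.60 CPM. Aif1, which encodes the calcium-binding protein IBA1, reached at most 0.943 CPM and passed the filter in none of the comparisons. It had no read in silencing 4, where 3 reads would be 0.116 CPM. All other microglia members had at least 15 reads in every library.

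Pairs again differed. All 12 microglia genes were higher in whisker-plus 1 than in whisker-minus 1 and 11 of 12 in whisker-plus 2 than in whisker-minus 2, but 9 of 12 were lower in whisker-plus 3 than in whisker-minus 3. The ratios of the class sum in those pairs were 3.30, 1.41 and 0.747. All 12 were lower in activation 4 than in activation control 4 and 11 of 12 were higher in activation 3 than in activation control 3. All 12 were lower in silencing 2 than in silencing control 2, and P2ry12 and C1qb were lower in silencing in all 4 pairs, as 19.8% of tested genes were. The median log2 fold change of the 11 tested members was 0.54 for whisker, with 11 of 11 above 0, 0.09 for activation with 9 of 11 above 0, and -0.23 for silencing with 0 of 11 above 0, beside medians of -0.07, -0.01 and -0.07 over all genes tested.

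Of 15 further microglia genes, 13 were highest in whisker-plus 1 within the whisker experiment and 9 in silencing control 2 within the silencing experiment. None of the tested genes of that list passed in any treatment comparison with limma, with or without the block, while DESeq2 called Fcgr3, an Fc receptor gene, higher in whisker-plus (log2 fold change 1.82, adjusted p = 0.0353).

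**Figure D4:**
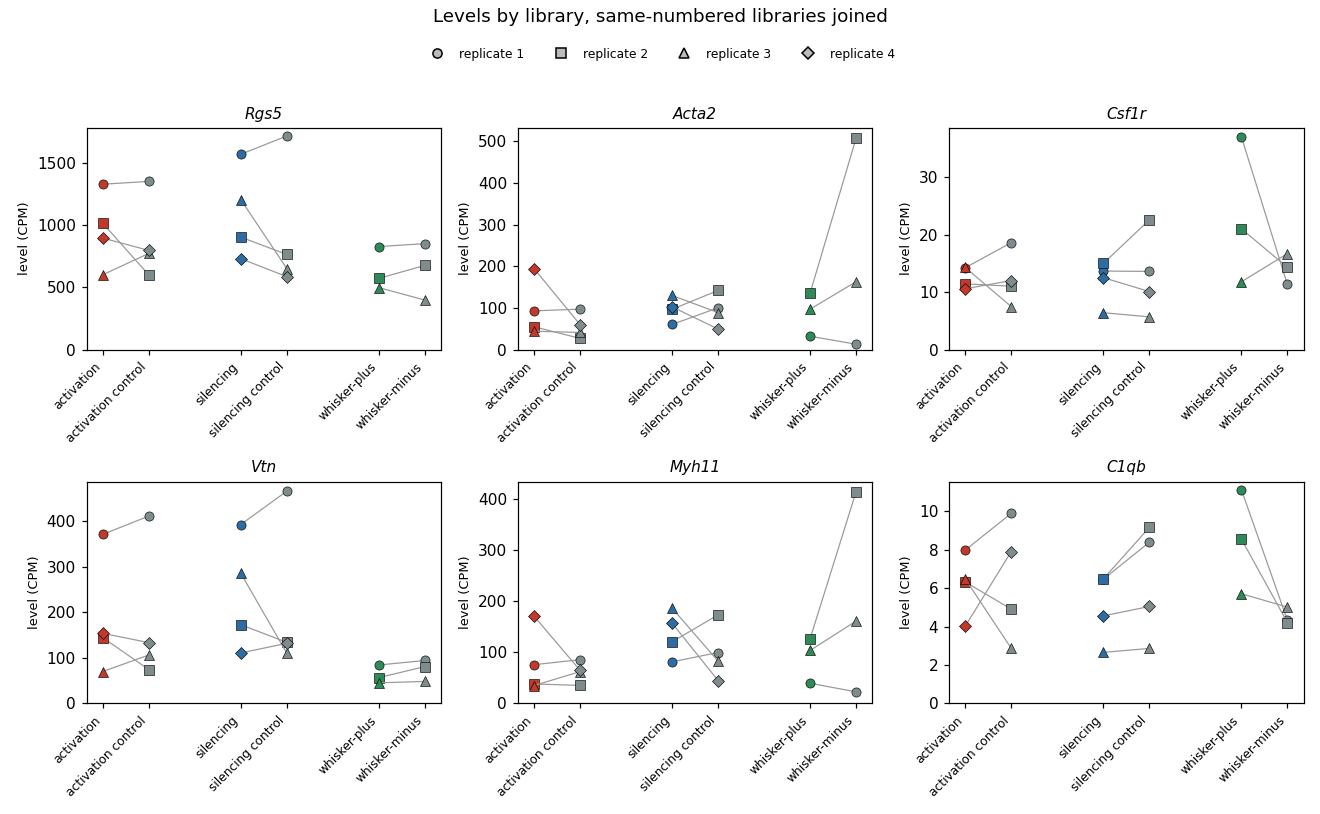
CPM of Rgs5, Vtn, Acta2, Myh11, Csf1r and C1qb in each library, with a line between the same-numbered treated and control libraries. The lines of 1 gene cross in most panels, and for C1qb all 3 whisker-plus points lie above the whisker-minus points.

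Perivascular macrophage genes were close to the floor of detection. Summed over the 4 members they reached 0.416 CPM in whisker-minus 3 to 4.07 CPM in whisker-plus 1. Each had reads in all 22 libraries, with a lowest count of 6 reads for Mrc1, 4 for Cd163, 3 for F13a1 and 2 for Lyve1. A count of 3 reads corresponded to 0.0520 to 0.163 CPM, depending on the library.

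Mrc1, the mannose receptor, was read at low levels throughout. It had 0.842, 0.558, 0.662 and 1.25 CPM in activation libraries 1 to 4, against 0.381, 0.289, 0.940 and 0.755 CPM in activation control libraries 1 to 4. Mrc1 was at 1.09, 1.25, 0.759 and 1.04 CPM in silencing libraries 1 to 4, against 0.763, 1.10, 0.535 and 0.684 CPM in silencing control libraries 1 to 4. Mrc1 reached 1.52, 1.02 and 0.695 CPM in whisker-plus libraries 1 to 3, against 0.329, 0.588 and 0.197 CPM in whisker-minus libraries 1 to 3. It was higher in silencing than in the same-numbered control in all 4 pairs, as 6.7% of tested genes were, and higher in whisker-plus in all 3 pairs, as 15.4% were. The silencing groups overlapped, while all 3 whisker-plus libraries lay above all 3 whisker-minus libraries. Of the genes that passed the filter 5.65% did so, but Mrc1 did not pass it for whisker, and only the fit without a filter tested it there. The authors' deposited table lists a whisker log2 fold change of 0.40 and an unadjusted p of 0.0201 for Mrc1, without an FDR. Mrc1 was tested for silencing, where its log2 fold change was 0.20 ± 0.14 (n = 4 each, limma adjusted p = 0.501).

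F13a1, which encodes the A subunit of coagulation factor XIII, ranged less by group than by library. It had 1.02, 0.790, 0.568 and 0.223 CPM in activation libraries 1 to 4, against 0.816, 0.241, 0.448 and 1.03 CPM in activation control libraries 1 to 4. F13a1 was at 0.455, 0.703, 0.474 and 1.12 CPM in silencing libraries 1 to 4, against 0.564, 0.400, 0.503 and 0.684 CPM in silencing control libraries 1 to 4. F13a1 reached 1.62, 0.720 and 0.641 CPM in whisker-plus libraries 1 to 3, against 0.572, 0.724 and 0.0657 CPM in whisker-minus libraries 1 to 3. Its highest value was in whisker-plus 1 and its lowest in whisker-minus 3. Cd163, a scavenger receptor for haemoglobin complexes, reached at most 1.43 CPM. Lyve1, a hyaluronan receptor that lymphatic endothelium also makes, was chosen here after its values were seen. It had 0.754, 0.372, 0.568 and 0.402 CPM in activation libraries 1 to 4, against 0.272, 0.193, 0.134 and 0.159 CPM in activation control libraries 1 to 4. All 4 activation libraries thus lay above all 4 controls, as 3.65% of the genes that passed the filter did. Lyve1 itself did not pass the filter, and only the fit without a filter tested it. The authors' deposited table lists an activation log2 fold change of 0.41 and an unadjusted p of 0.0184 for Lyve1, without an FDR. For silencing and whisker the Lyve1 groups overlapped. Whisker-minus 3 was the lowest library of its experiment for all 4 members, and whisker-plus 1 the highest for 3 of 4, as it was for all 12 microglia genes. Of 12 further macrophage and monocyte genes 3 were tested, among them Stab1, a scavenger receptor also made by endothelium, at 127 to 194 CPM. Cd14, a co-receptor for bacterial lipopolysaccharide, rose in whisker-plus with the block (log2 fold change 0.91 ± 0.24, adjusted p = 0.0450) and did not pass without it (adjusted p = 0.278).

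Fibroblast genes summed to 4.35 to 25.0 CPM over the 5 members. The sum was highest in silencing control 1, activation 4 and whisker-minus 2, at 25.0, 21.5 and 19.4 CPM. All 5 members peaked in activation 4 within the activation experiment, and 4 of 5 peaked in silencing control 1 within the silencing experiment. These libraries were also the top ones for smooth muscle (activation 4, whisker-minus 2) or for pericytes (silencing control 1).

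Col1a2, which encodes the alpha 2 chain of type I collagen, was the most abundant of the class. It had 9.40, 3.21, 2.60 and 11.8 CPM in activation libraries 1 to 4, against 8.86, 3.18, 6.31 and 7.59 CPM in activation control libraries 1 to 4. Col1a2 was at 10.98, 9.42, 10.3 and 4.67 CPM in silencing libraries 1 to 4, against 15.7, 7.79, 5.35 and 5.89 CPM in silencing control libraries 1 to 4. Col1a2 reached 4.65, 3.88 and 3.46 CPM in whisker-plus libraries 1 to 3, against 2.32, 11.9 and 4.77 CPM in whisker-minus libraries 1 to 3. The groups overlapped in each experiment, and the log2 fold changes of -0.09 ± 0.42, 0.08 ± 0.33 and -0.33 ± 0.44 for activation, silencing and whisker did not pass (adjusted p = 0.961, 0.926 and 0.815). The first lay above 0 with edgeR and DESeq2.

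Col3a1, the type III collagen chain, was lower. It had 3.19, 1.16, 0.946 and 4.20 CPM in activation libraries 1 to 4, against 1.196, 0.674, 1.88 and 2.42 CPM in activation control libraries 1 to 4. Col3a1 was at 1.79, 1.501, 2.24 and 1.47 CPM in silencing libraries 1 to 4, against 3.02, 3.23, 1.23 and 1.498 CPM in silencing control libraries 1 to 4. Col3a1 reached 0.521, 2.61 and 1.43 CPM in whisker-plus libraries 1 to 3, against 0.711, 5.93 and 1.56 CPM in whisker-minus libraries 1 to 3. Whisker-minus 2 was the top whisker library for both Col1a2 and Col3a1, as for the smooth muscle genes. The log2 fold changes were 0.33 ± 0.34, -0.19 ± 0.22 and -0.39 ± 0.53 for activation, silencing and whisker (adjusted p = 0.769, 0.706 and 0.822).

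Col1a1, which encodes the alpha 1 chain of type I collagen, did not keep pace with its partner chain. It had 0.709, 0.604, 0.0473 and 1.38 CPM in activation libraries 1 to 4, against 0.435, 0.289, 0.448 and 0.636 CPM in activation control libraries 1 to 4. Col1a1 was at 0.425, 0.766, 0.980 and 0.270 CPM in silencing libraries 1 to 4, against 1.72, 0.699, 0.503 and 0.488 CPM in silencing control libraries 1 to 4. Col1a1 reached 0.441, 0.682 and 0.110 CPM in whisker-plus libraries 1 to 3, against 0.347, 0.996 and 1.75 CPM in whisker-minus libraries 1 to 3. Its lowest value was 1 read, and silencing control 1 stood apart from the other controls of its group. Lum, which encodes the proteoglycan lumican, reached at most 0.947 CPM and had no read in whisker-plus 3, where 3 reads would be 0.0549 CPM. Neither gene passed the filter for any treatment.

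Dcn, which encodes the proteoglycan decorin, was chosen after its values were seen. Its whisker fold change had the opposite sign to those of Col1a2 and Col3a1, which both rose to 0.18 when 1 library was left out. It had 1.26, 2.71 and 1.10 CPM in whisker-plus libraries 1 to 3, against 1.02, 0.566 and 0.394 CPM in whisker-minus libraries 1 to 3. All whisker-plus libraries lay above all whisker-minus libraries, as 5.65% of tested genes did. Dcn reached 1 CPM in all whisker-plus libraries but only in whisker-minus 1, so its whisker-plus levels alone carried it past the filter. The log2 fold change was 0.67 ± 0.30 (adjusted p = 0.399, and 0.158 with the block). It was 0.21 ± 0.29 for activation and 0.03 ± 0.33 for silencing (adjusted p = 0.831 and 0.9749). Of 15 further fibroblast genes, led in level by Apod, a lipid-binding apolipoprotein gene also present in other cells, 9 were highest in whisker-minus 2 within the whisker experiment, and none of those tested passed in any treatment comparison, with limma (with or without the block) or DESeq2.

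**Figure D5:**
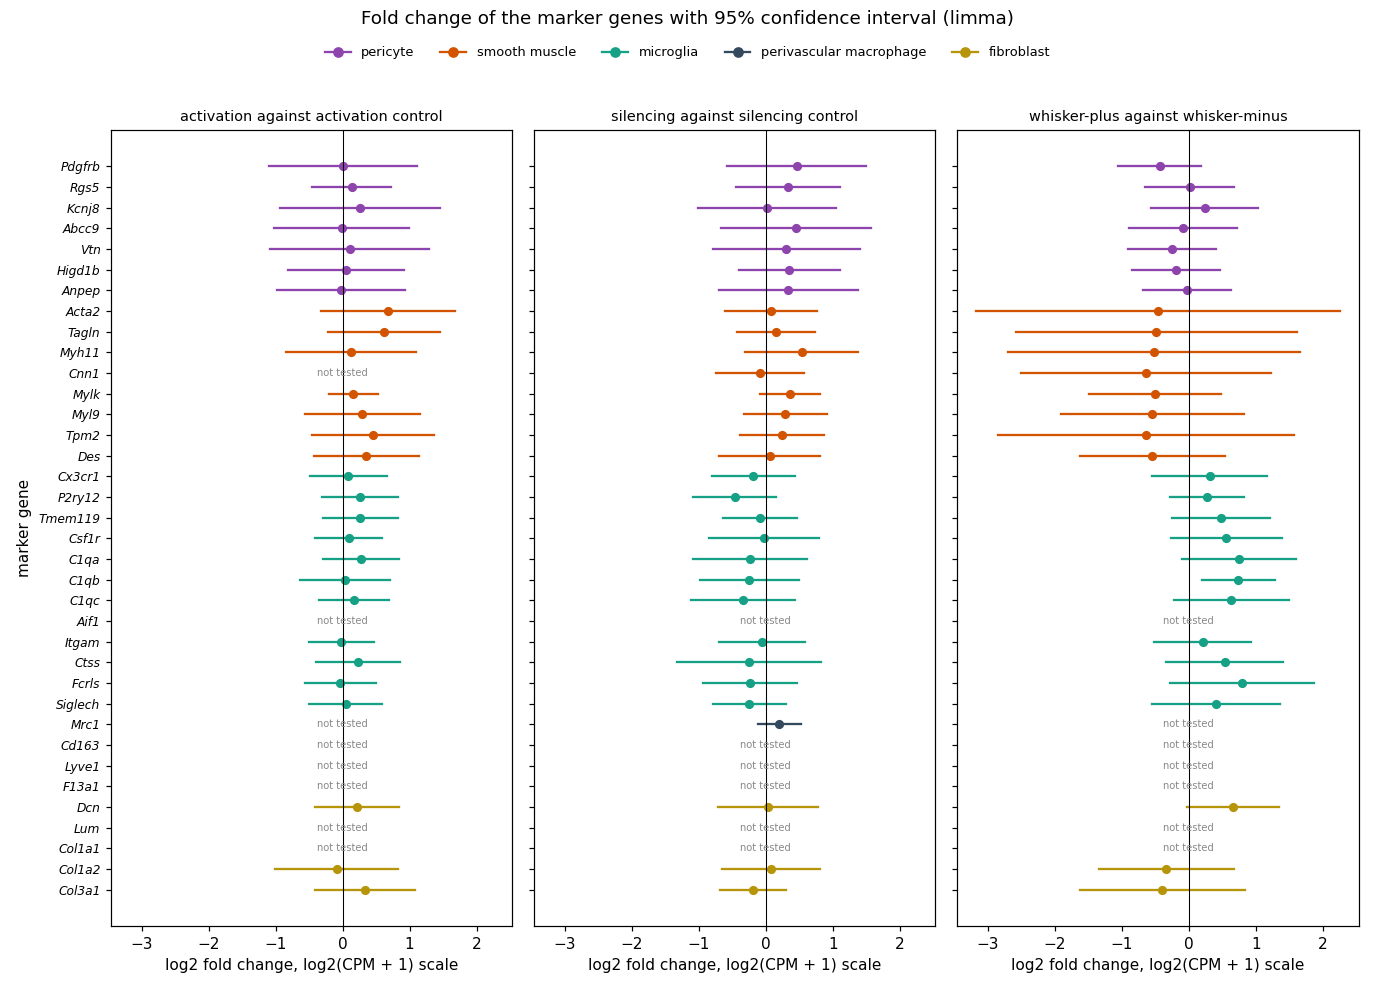
Log2 fold change of each tested marker in the 3 treatment comparisons, on the log2(CPM + 1) scale, with its 95% confidence interval from limma and the classes in colour. Every interval includes 0 except that of C1qb in the whisker comparison, and the widest interval is that of Acta2 in that comparison.

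The activation and silencing effects were also set against each other in the 16 DREADD libraries. None of the 30 tested members passed for the activation effect minus the silencing effect, where 2.31% of 13464 genes passed, nor with the block, where 6.35% did, nor with DESeq2, which called 5.64%. No member had an unadjusted p under 0.05 without the block, where 16.7% of all genes had, and 1 had one with it, where 22.7% had. Microglia members lay above 0 in 11 of 11 cases with a median of 0.29 and pericyte members in 1 of 7 with a median of -0.30, beside 7831 of 13464 genes above 0 and a median of 0.06 over all genes. The lowest adjusted p of a member was 0.395 without the block and 0.105 with it. Among the further genes, Tpm1 passed as higher with the block (log2 difference 0.57 ± 0.11, adjusted p = 0.0165) and not without it (adjusted p = 0.0653).

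In whisker-minus against the mean of both DREADD control groups, 0 of 29 tested members passed with limma, where 0.193% of 13446 genes did, and 4 had an unadjusted p under 0.05, as 21.7% of all genes did. All 7 pericyte members lay below 0, from -0.46 for Rgs5 to -1.13 for Vtn, whose 95% interval was -2.19 to -0.07 (adjusted p = 0.208). DESeq2, which called 8.44% of all genes, called Cnn1 higher and Dcn and Fcrls lower (adjusted p = 0.0492, 0.0351 and 0.0446). Without whisker-minus 1 limma called Acta2, Cnn1 and Myh11 higher (log2 fold changes of 2.08, 2.04 and 1.82, adjusted p = 0.0284, 0.00395 and 0.0379). That library had the lowest smooth muscle sum, so leaving it out raised the whisker-minus mean of these genes. Fits without 1 library called 5 to 640 of all genes. Only silencing control 2 among the DREADD controls reached 1 CPM of Cnn1, so its passing the filter rested on whisker-minus. Dcn reached 1 CPM in 1 whisker-minus library, so its passing rested on the DREADD controls. Over all alternatives the adjusted p ranged from 0.0284 to 0.939 for Acta2, 0.00395 to 0.669 for Cnn1 and 0.0379 to 0.887 for Myh11. For Dcn and Fcrls it ranged from 0.0351 to 0.571 and from 0.0446 to 0.596. Brain region, genotype, CNO, whisker removal, the pooling of barrel cortices and sequencing depth all differ between these control groups and cannot be told apart. An empty cage is stated for the whisker-minus mice only.

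Silencing control against activation control, 2 groups of littermates from different lines, gave no called member among 28 tested, where 0.17% of 12965 genes passed, and no member with an unadjusted p under 0.05, as 6.56% of all genes had. DESeq2, which called 0.764% of all genes, and edgeR called none either. All 7 tested smooth muscle members lay above 0 with a median of 0.39, beside 8218 of 12965 genes above 0 and a median of 0.07, and Acta2 had a log2 fold change of 0.80 ± 0.38 (adjusted p = 0.727). The pericyte median was 0.06 and the microglia median 0.0018.

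Set against the endothelial genes of the same library, the classes overlapped in range. The smooth muscle share exceeded the pericyte share in whisker-minus 2 (5.07% against 2.56%) and in whisker-minus 3 (1.86% against 1.59%). The 7 pericyte genes summed to 1.59 to 8.12% of the 14 endothelial genes, the 8 smooth muscle genes to 0.437 to 5.07% and the 12 microglia genes to 0.0708 to 0.413%. The 5 fibroblast genes reached at most 0.0802% and the 4 macrophage genes 0.012%. These shares depend on which genes stand in each list and on how strongly a cell expresses them, and they are not shares of cells.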

How the data were processed

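Libraries were made from CD31+ cells of mouse brain and sequenced as RNA-seq. The submitters' processing notes name Bowtie2 2.2.1, TopHat2 2.0.11, SAMtools 0.1.19, HTSeq 0.6.1, DESeq2 and build mm9, without roles. The table deposited by the authors holds CPM per gene and library, together with their log2 fold changes, p-values and FDR for each experiment. All CPM values were whole multiples of 1 read per library (100% within 0.01 read), so reads could be recovered for the count models. No source used here states whether counting was stranded.

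The 36 members and all further marker lists were chosen with earlier results of these data known. Each comparison was fitted in limma 3.58.1 (R 4.3.3) on log2(CPM + 1) with a mean-variance trend, keeping genes that reached 1 CPM in a number of libraries equal to the smallest group, and p-values were adjusted by Benjamini-Hochberg over all genes tested. Fold changes are on that log2 scale, which understates changes of low genes. An adjusted p under 0.05 was a call. The settings varied were scaling (RLE, TMM), a pseudocount of 0.1, no filter, a fit of all 22 libraries, edgeR 4.0.16 and DESeq2 1.42.0 on recovered reads, leaving out each library, and the replicate number as a block. Class sums have no test. Levels per kb used GENCODE M21 exon lengths, of another build than the files. The fits were tested on simulated data.

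Same-numbered libraries deviated together from their group means over all tested genes (r = 0.37, 0.45, 0.43 and 0.28 for activation, 0.60, 0.16, 0.44 and 0.14 for silencing, and 0.46, 0.48 and 0.62 for whisker), so the numbers were taken to pair libraries, although no label states a pairing. The series text calls the replicates biological samples, but the meaning of their numbers is not stated. Values of every library are given for the 2 members of each class with the highest mean CPM and for those in which 1 library stood apart. C1qb, Dcn and Lyve1 were added after their values were seen, with the libraries of 1 experiment each. Counting floors are 3 reads and cover counting error only.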

Additional observations from a re-analysis of the deposited data

Results flagged for a closer look

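Of 164 groups of 4 libraries tested, over members and class sums, 10 (6.10%) held 1 library whose gap to the nearest other exceeded Dixon's critical share of the group's range. Chance flags about 1 in 20 groups where values are normal and groups independent. Genes of a class varied together here and class sums hold their members, so the share cannot be set against that rate. Silencing control 1 accounted for 6 of the 10 flags, which are not separate events. It had 1714 CPM of Rgs5, 466 CPM of Vtn, 179.6 CPM of Pdgfrb and 20.8 CPM of Higd1b, where the nearest other silencing controls had 763, 134, 53.9 and 8.76 CPM. Its summed pericyte level was 2533 CPM, against 1015 CPM in the nearest control, and its Col1a1 level 1.72 CPM, against 0.699 CPM. Silencing 1, the same-numbered treated library, had a pericyte sum of 2267 CPM.

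Higd1b was at 24.3 CPM in activation control 1, against 9.42 CPM in the nearest other activation control. Cnn1 was at 6.12 CPM in activation 4, against 1.11 CPM in the nearest other activation library, and at 3.00 CPM in silencing control 2, against 0.862 CPM. The summed fibroblast level was low in silencing 4, at 7.53 CPM, where the nearest other silencing library had 15.4 CPM.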

How the results depend on the processing

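No member was called for activation, silencing, or the difference of both effects under any alternative run. DESeq2 called 1 member (C1qb, log2 0.98) in the whisker comparison and 3 between whisker-minus and the DREADD controls, and leaving out libraries gave 0 to 3 there. Counts over all genes moved more, and the cause was not tested. For activation, 18 genes became 0 with RLE scaling, TMM scaling or no filter, 6 with a pseudocount of 0.1, 243 in the fit of all 22 libraries, 2 with edgeR and 374 with DESeq2. With the replicate block they became 234, or 138 with TMM and 92 with edgeR. For silencing, 23 became 35 with TMM, 14 with a pseudocount of 0.1, 7 without a filter, 211 in the fit of all libraries and 461 with DESeq2, and 136 with the replicate block (134 with TMM, 116 with edgeR). For whisker, 0 became 406 with DESeq2 and 1097 with the replicate block (843 with TMM, 750 with edgeR). For the difference, 311 became 111 without a filter, 531 in the fit of all libraries, 760 with DESeq2 and 855 with the replicate block (840 with TMM, 816 with edgeR). Between whisker-minus and the DREADD controls, 26 became 1192 in the fit of all libraries, 135 with edgeR and 1135 with DESeq2. Between the DREADD controls, 22 became 14 without a filter and 99 with DESeq2. The block changed no call of a member. The block fits with TMM or with edgeR were chosen after seeing the data.

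Leaving out 1 library gave 0 to 8 genes for activation, 0 to 1504 for silencing (the highest without silencing control 2), 0 to 352 for whisker (352 without whisker-minus 1), 85 to 915 for the difference, 5 to 640 for whisker-minus against the DREADD controls and 14 to 20 between those controls. Log2 fold changes that crossed 0 on leaving out a library ranged for activation as Rgs5 -0.0393 to 0.36, Vtn -0.31 to 0.60, Myh11 -0.34 to 0.42, Csf1r -0.10 to 0.30, Ctss -0.00233 to 0.52, Col1a2 -0.40 to 0.21, Higd1b -0.27 to 0.40, Pdgfrb -0.38 to 0.46 and C1qb -0.24 to 0.26; for silencing as Acta2 -0.20 to 0.30, Csf1r -0.34 to 0.27, Ctss -0.69 to 0.0756, Col1a2 -0.0847 to 0.38, Cnn1 -0.22 to 0.21 and Dcn -0.18 to 0.29; and for whisker as Rgs5 -0.30 to 0.25, Myh11 -1.67 to 0.40, Acta2 -1.92 to 0.68, Col1a2 -0.79 to 0.18, Col3a1 -0.83 to 0.18, Cnn1 -1.56 to 0.0485 and Higd1b -0.47 to 0.0796. With all libraries kept, Col1a2 in activation was 0.0886 with edgeR and 0.0902 with DESeq2, and C1qb in activation -0.0191 and -0.0185. Csf1r in silencing was 0.0441 with RLE, 0.0336 with TMM and with the replicate block and TMM, and 0.0346 with edgeR and the block. Depth limits the macrophage genes, Aif1, Lum and Col1a1, which had 0 to 6 reads in their lowest library.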
